A study of Homo sapiens with 8 samples.

Results

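The genes described are HMGCS1, LSS, INSIG1 and DHCR7, the 4 members chosen by symbol among 9245 rows of log2 ratios, with each symbol found once. They were chosen with their fitted values under loss of mir-141 over all libraries already known, so those values are given below as a description, with no test. Their set 1 ratios were also in view at the choice, so their ranks in set 1 are description too. The cells were SK-BR-3, an established human breast cancer line with ERBB2 amplification. The groups were mir-141 knockout (clone 23 in set 1, clone 10 in set 2), mir-200c knockout (clones 11 and 29), the mir-141 and mir-200c double knockout (clones 55 and 61) and wild-type cells, 2 libraries each. All knockouts were made with TALENs, designed nucleases that cut a chosen site. Each knockout library is 1 clone, so clone and genotype cannot be told apart within a set, and the wild type of a set is shared by its 3 ratios. A ratio of 0 means the level of that wild type.

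Cholesterol is built from acetyl-CoA through mevalonate, farnesyl diphosphate, squalene and lanosterol. The enzyme genes are switched on together by SREBP transcription factors, which leave the endoplasmic reticulum with their escort SCAP when sterol is scarce. INSIG1 holds SCAP and SREBP back when sterol is plentiful, and its own gene is an SREBP target, which closes a feedback loop. HMGCS1 makes HMG-CoA at the entry to the mevalonate pathway, LSS closes the ring that gives lanosterol, and DHCR7 carries out a terminal reduction to cholesterol.

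The mature strands of the deleted microRNAs, from RefSeq (GRCh38.p14), are shown because the matches searched in the cholesterol genes follow from their seeds. Capitals mark the seed, bases 2 to 8. Both lie on the plus strand of chromosome 12, hsa-miR-141-3p at chr12:6964155-6964176 and hsa-miR-200c-3p at chr12:6963742-6963764, and their seeds differ by 1 base, at position 4.
hsa-miR-141-3p: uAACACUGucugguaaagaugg
hsa-miR-200c-3p: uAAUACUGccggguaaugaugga

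Of the 4 genes, HMGCS1 alone carried a match to either seed in its 3' UTR. The match was to mir-141 (CAGTGTT in the mRNA sense), lay at chr5:43290172-43290178 on the minus strand (GRCh38), at base 953 of a UTR of 1736 bases, and was followed by an A. LSS, INSIG1 and DHCR7 held neither match. Across the 9171 rows with an annotated 3' UTR, 18.2% held a mir-141 match and 16.3% a mir-200c match. Among the 20 measured cholesterol enzymes, 2 held a mir-141 match, HMGCS1 and LBR, a sterol reductase that is also a lamin receptor, and 1 (LBR) held a mir-200c match. The 3 mir-141 matches are shown in capitals at the end of 30 bases of mRNA, with LBR at chr1:225402259-225402265 and chr1:225401903-225401909 on the minus strand.
HMGCS1: tattaggctatttctgatgcttCAGTGTTa
LBR, upstream match: ttttgactttttaaaagttcatCAGTGTTt
LBR, downstream match: atatatgagccatttagatatgCAGTGTTa

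A doubt about how the rows of the 2 sets line up touches the values below. Across the table, the mean of the 3 ratios in set 1 and that in set 2, both rank-transformed, correlated at 0.0110 as listed. This check was added after the data had been seen. In 44 windows of 200 rows, set 2 was displaced by up to 150 rows in either direction. The best offset lay within 20 rows in 24 windows (54.5%), although such offsets were 13.6% of those tried, and it was 0 in 1 window. All 5 windows whose best correlation exceeded 0.3 had an offset within 20 rows. Averaged over windows, the highest correlation was 0.0528 within 20 rows, against a range of −0.0294 to 0.0290 for longer offsets and 0.00767 as listed. The windows around LSS and DHCR7 share most of their rows and count as 1 observation, with a best offset of −3 rows and correlations of 0.247 and 0.227, against −0.0649 and −0.0489 as listed. Around HMGCS1 it was −18 rows (0.187), and around INSIG1 98 rows (0.202), which lies among the longer offsets. Each of these correlations is the highest over all offsets tried. Other windows reached as much at long offsets, such as 0.260 at 64 rows and 0.248 at −123 rows. Taken singly, the windows around the members therefore do not locate a displacement. Values of at least 1 set may stand beside the wrong gene. The check cannot tell which set that is, and neither set was checked against the gene names. All values are given as listed, set 1 comes first by the rule of this work, and the sets were not realigned.

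**Figure D1:**
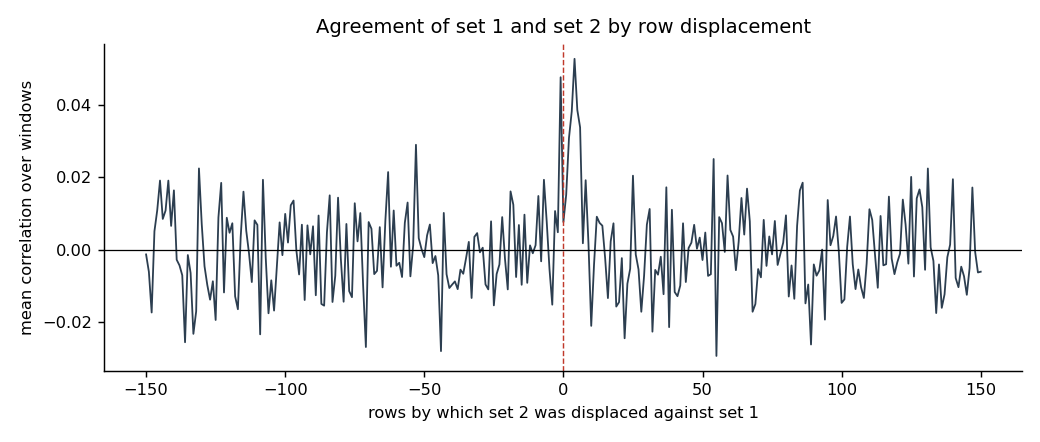
Mean Pearson correlation (y axis) between rank-transformed set 1 and set 2 ratios over 44 windows of 200 rows, by the number of rows by which set 2 was displaced (x axis). The curve peaks at 0.0528 a few rows away from 0 (dashed line), where it is 0.00767, and stays between −0.0294 and 0.0290 beyond 20 rows.

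In set 1, HMGCS1, LSS and INSIG1 had the same order of signs: below wild type in the mir-141 and double knockouts and above it in the mir-200c knockout. DHCR7 lay between −0.14 and −0.06 in all 3 clones. HMGCS1 (chr5:43289395-43313512, GRCh38, minus strand) had log2 ratios of −0.26 in the mir-141 knockout, 0.42 in the mir-200c knockout, and the double knockout had −0.27. Those are 83.5%, 134% and 83.1% of the wild-type level; in such bulk RNA, fewer cells expressing a gene and less RNA per cell cannot be told apart. The mir-141 and double knockouts were thus alike and the mir-200c knockout stood apart from both. In set 2 HMGCS1 was listed at −0.44, −0.26 and −0.56, below wild type in all clones and lowest again in those without mir-141.

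INSIG1 (chr7:155297776-155310235, plus strand) had the lowest ratios of the 4 genes in set 1, −0.45 in the mir-141 knockout and −0.67 in the double knockout, with 0.13 in the mir-200c knockout. It was at 73.4% and 62.7% of wild type in the clones without mir-141 and at 109% in the clone that lacked mir-200c only. It ranked 315 and 215 from the lowest of 9245 rows in those clones without mir-141. In set 2 it was listed at −0.024, 0.018 and 0.045, all close to wild type, so the set 1 difference was not seen beside its name there.

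LSS (chr21:46188141-46228824, minus strand) was at −0.14 in the mir-141 knockout of set 1, at 0.30 without mir-200c only, and at −0.07 without both. Set 2 listed it at −0.12, 0.38 and 0.10. In both sets the mir-141 knockout was the lowest, the double knockout next and the mir-200c knockout the highest. DHCR7 (chr11:71428193-71452868, minus strand) was at −0.08, −0.14 and −0.06 in the set 1 clones in the same order, while set 2 listed −0.36, 0.12 and −0.23. Its low values in the clones without mir-141 thus come from set 2 alone.

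**Figure D2:**
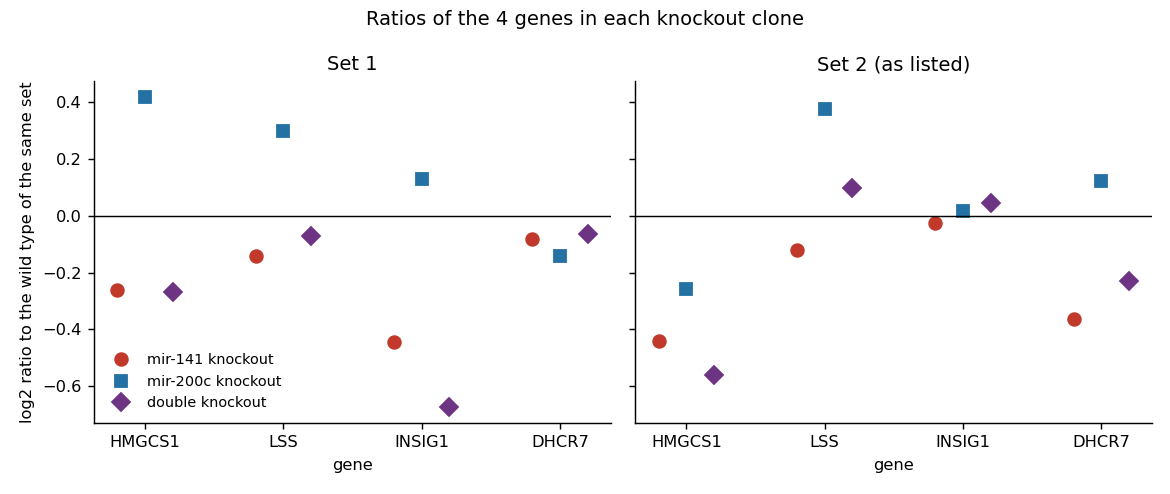
Log2 ratio to that set's wild type (y axis) for HMGCS1, LSS, INSIG1 and DHCR7 in each knockout clone, set 1 left and set 2 as listed right; each point is 1 clone and 0 is wild type. In set 1 the mir-200c knockout lies above the other clones for HMGCS1, LSS and INSIG1, and the DHCR7 points lie between −0.14 and −0.06.

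More than 1.2-fold below wild type in set 1 were INSIG1 in the mir-141 knockout, and INSIG1 and HMGCS1 in the double knockout; HMGCS1 in the mir-141 knockout was just short of that (1.197-fold lower), and in the double knockout just past it (1.203-fold lower). Among all rows, 11% were that low in the mir-141 knockout and 18.4% in the double knockout. More than 1.2-fold above wild type in the mir-200c knockout were HMGCS1 and LSS, where 21.4% of all rows were that high. Single ratios of this size were common in these libraries.

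The double knockout set against the mir-200c knockout of the same set asks what the further absence of mir-141 goes with, and the wild type does not enter it. In set 1 this log2 difference was −0.80 for INSIG1, −0.69 for HMGCS1, −0.37 for LSS and 0.08 for DHCR7. The first 3 were 57.3%, 62.1% and 77.4% of the level in the mir-200c knockout, and 1.56%, 2.25% and 9.61% of all rows lay lower. The set 1 ratios were in view when the genes were chosen, so these shares describe the genes and test nothing. All of the first 3 were more than 1.2-fold lower, as were 16.9% of all rows, and 15.6% were more than 1.2-fold higher. The mir-141 knockout against wild type gave smaller differences, −0.45, −0.26, −0.14 and −0.08 in the same order of genes. In set 2 as listed, the double minus the mir-200c knockout was 0.03 for INSIG1, −0.30 for HMGCS1, −0.28 for LSS and −0.35 for DHCR7.

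Averaged over both backgrounds, absence of mir-141 went with −0.62 for INSIG1, −0.47 for HMGCS1, −0.26 for LSS and −0.0016 for DHCR7 in set 1. The same means in set 2 as listed were 0.0016, −0.37, −0.20 and −0.36. HMGCS1 and LSS were low in both sets, INSIG1 in set 1 only and DHCR7 in set 2 only. Of all rows, 2.21%, 8.72%, 1.12% and 50.8% lay lower than HMGCS1, LSS, INSIG1 and DHCR7 in set 1. In set 2 as listed these shares were 4.55%, 17.1%, 54.1% and 5.07%. Both sets entered the fitted values known at the choice, so low values in both are description and no replication. HMGCS1 was at 83.5% and 83.1% of wild type in the mir-141 and double knockouts of set 1, and at 73.7% and 67.7% in those of set 2 as listed. In the mir-200c knockouts it was at 134% in set 1 and 83.6% in set 2 as listed. Whether its mir-141 seed match plays a part was not tested. Fitted over all 8 libraries, the values that were known when the genes were chosen were −0.42 ± 0.13 for HMGCS1, −0.31 ± 0.15 for INSIG1, −0.23 ± 0.09 for LSS and −0.18 ± 0.11 for DHCR7 (SE), and no test is drawn from them. With limma over all 8 libraries, 0 of 9245 rows (0%) were called for loss of mir-141 (smallest adjusted p = 0.901), and 476 had an unadjusted p under 0.05. The fits here and below take the rows of both sets as listed, so a displaced row enters them under another gene's name. On the 4 libraries of set 1 alone, limma also called 0 rows for loss of mir-141, with a smallest adjusted p of 0.0616 and 587 rows at an unadjusted p under 0.05.

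The genes were not chosen on the contrast for absence of mir-200c, which was tested for each. The set 1 ratios that enter it were in view at the choice, so the test is not independent of that choice. No member was called by limma, nor was any other row (0%, smallest adjusted p = 0.541, 821 rows at an unadjusted p under 0.05). The fitted log2 change was 0.24 ± 0.09 for LSS (SE of the fit over 8 libraries, limma adjusted p = 0.541, unadjusted p = 0.0351). LSS was higher without mir-200c in both backgrounds of both sets, by 0.30 and 0.07 in set 1 and by 0.38 and 0.22 in set 2 as listed. The fitted change was 0.0081 ± 0.126 for HMGCS1 (limma adjusted p = 0.988), −0.0031 ± 0.149 for INSIG1 (0.995) and 0.034 ± 0.114 for DHCR7 (0.934). For HMGCS1 this mean of about 0 joins 0.21 in set 1 with −0.19 in set 2 as listed. In set 1 its double minus mir-141 knockout difference was −0.01, beside 0.42 for the mir-200c knockout against wild type. INSIG1 had −0.23 and 0.13 in those comparisons, so where mir-141 was already absent neither gene was higher without mir-200c.

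Whether the double knockout departs from the sum of the single knockouts was tested as an interaction. The set 1 ratios in view at the choice of the genes enter this test too. In set 1 that departure was −0.43 for HMGCS1, −0.36 for INSIG1, −0.23 for LSS and 0.16 for DHCR7. Over both sets the fitted values were −0.14 ± 0.27, −0.15 ± 0.32, −0.19 ± 0.20 and 0.09 ± 0.25 (SE), each with a limma adjusted p of 1.00. Limma called 0 of 9245 rows (0%), with 157 at an unadjusted p under 0.05. Each of these 4 standard errors exceeded the size of the value beside it.

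**Figure D3:**
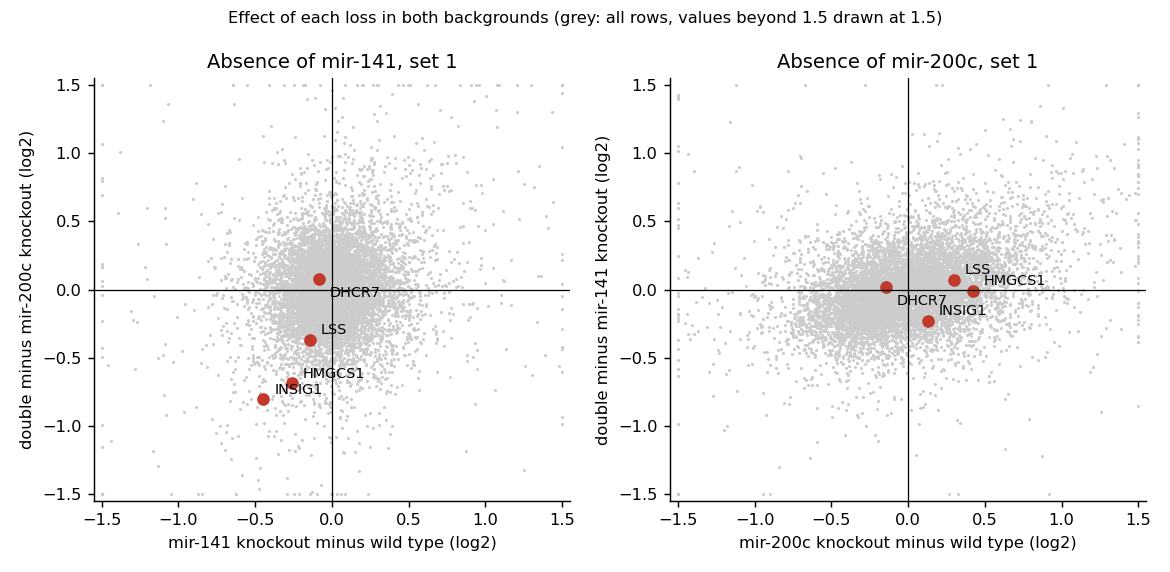
Log2 differences in set 1 for absence of mir-141 (left) and mir-200c (right): in otherwise wild-type cells on the x axis and in cells lacking the other microRNA on the y axis, with 1 grey point per row (values beyond 1.5 drawn at 1.5) and the 4 genes in red. INSIG1, HMGCS1 and LSS lie below 0 on both axes for mir-141 (−0.45 and −0.80, −0.26 and −0.69, −0.14 and −0.37), DHCR7 near 0.

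The wider pathway was read from lists of enzymes by step, with 20 of the listed enzyme symbols measured. Of the 8 genes from acetyl-CoA to farnesyl diphosphate, 6 were more than 1.2-fold lower in the double than in the mir-200c knockout of set 1 and 0 were higher, with a median of −0.45 against −0.00025 over all rows, of which 16.9% were that much lower and 15.6% higher. In set 2 as listed, 1 of the 8 (HMGCS1) was lower and 0 were higher, with a median of −0.05, where 13% of all rows were lower and 12.6% higher. Besides HMGCS1, those lower in set 1 were the thiolase ACAT2 (−0.58), the decarboxylase MVD (−0.48), the mevalonate kinase MVK (−0.47), the isomerase IDI1 (−0.43) and the phosphomevalonate kinase PMVK (−0.39). FDPS, which makes farnesyl diphosphate, had −0.12. Of 3 genes from there to lanosterol, 2 were lower, FDFT1, the squalene synthase (−0.38), and LSS, while SQLE, the squalene epoxidase, had −0.06. Of 9 later genes, 1 was lower, HSD17B7 (−0.68), which has a near-identical pseudogene and is uncertain, and 1 was higher. With the members left out, 7 of 17 enzymes were lower and 1 was higher in set 1. In set 2 as listed, 1 of the 17 was lower and 0 were higher. The lists were chosen with earlier results of these data known, so these counts are a description.

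Much of that difference lay in the mir-200c knockout, clone 11. In it, 4 of the 8 early genes were more than 1.2-fold above wild type: MVD at 0.63, HMGCS1 at 0.42, MVK at 0.42 and PMVK at 0.42, as were 21.4% of all rows. The mir-200c knockout of set 2, clone 29, was listed with 6 of the 8 below wild type, as were 52.1% of all rows. The median of the 8 was −0.16, with MVD at −0.17, HMGCS1 at −0.26, MVK at −0.24 and PMVK at −0.15. In that clone 1 of the 8 was more than 1.2-fold higher, IDI1 (0.48), as were 16.2% of all rows. In the mir-141 knockout of set 1, 2 of the 8 were lower than wild type by that measure, among them IDI1 (−0.30). Of all rows, 11% were that low. In the double knockout of set 1, 3 were lower, IDI1 (−0.56), ACAT2 (−0.37) and HMGCS1, as were 18.4% of all rows. The set 1 median of the 8 was −0.16 in the mir-141 knockout, 0.31 in the mir-200c knockout, and the double knockout had −0.05. For the double against the mir-141 knockout of set 1, 0 of 8 passed 1.2-fold in either direction, where 12.6% of all rows were lower and 13.2% higher.

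Among later enzymes in set 1, MSMO1, a methyl sterol oxidase, had 0.41 in the mir-200c knockout, with −0.04 in the mir-141 and 0.19 in the double knockout. HSD17B7 had 0.42 there, with −0.04 and −0.27. EBP, the sterol isomerase, was below wild type in all 3, at −0.67 in the mir-200c, −0.52 in the double and −0.11 in the mir-141 knockout. LBR, with 2 matches to each seed, had −0.43, −0.14 and −0.35 in the mir-141, the mir-200c and the double knockout. CYP51A1 (0.26, 0.16 and 0.01), NSDHL (0.18, 0.04 and 0.28) and C14orf1 (0.15, 0.03 and −0.09) did not share the order of signs of HMGCS1. That order, below 0 without mir-141 in both states and above 0 in the mir-200c knockout, was met by 8 of 20 enzymes and by 8.53% of all rows. With the members left out, 6 of 17 enzymes met it. The order was noticed in these data first, so these counts are a description. The 8 were HMGCS1 and LSS with ACAT2, MVK, FDPS, FDFT1, SQLE and HSD17B7.

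**Figure D4:**
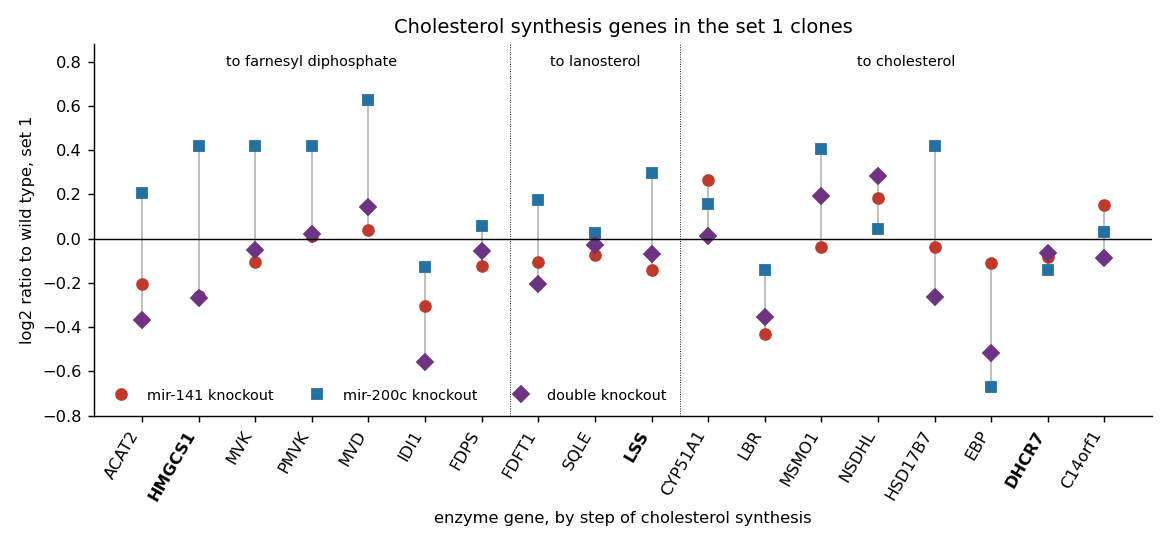
Log2 ratio to the set 1 wild type (y axis) for cholesterol synthesis genes in pathway order (x axis), with the mir-141 (circle), mir-200c (square) and double knockout (diamond), 1 clone each; members are in bold. For HMGCS1, MVK, PMVK and MVD the square lies at 0.42 to 0.63, with the other symbols between −0.27 and 0.14.

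The genes that sense sterol, process SREBP or act with INSIG1 were read next. Of the 15 measured besides INSIG1, 0 were more than 1.2-fold lower and 1 was higher in the double against the mir-200c knockout of set 1, with a median of 0.04. Among all rows, 16.9% were that much lower and 15.6% higher. In set 2 as listed, 1 of the 15 was lower and 3 were higher, with a median of 0.10, where 13% of all rows were lower and 12.6% higher. SREBF2, the transcription factor for cholesterol genes, had −0.34 in the mir-141, −0.40 in the mir-200c and −0.61 in the double knockout of set 1, below wild type in all, but was listed at 0.14, 0.0098 and 0.27 in set 2, above wild type in all. SREBF1, its relative with a larger part in fatty acid synthesis, had −0.20, −0.32 and −0.44 in set 1 and 0.11, 0.04 and 0.16 as listed in set 2. In set 1 SCAP had −0.12, −0.13 and −0.21, and the SREBP proteases MBTPS1 and MBTPS2 had −0.08, 0.21 and 0.03, and 0.24, −0.15 and −0.12. INSIG2, the second INSIG protein, had −0.20, 0.94 and 0.71 in set 1, against 0.0062, 0.11 and −0.11 as listed in set 2, so its high ratios without mir-200c were in set 1 only.

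Genes around INSIG-dependent protein breakdown varied in set 1. RNF145, a ubiquitin ligase, had 0.25, 0.06 and 0.28 in the mir-141, the mir-200c and the double knockout, and RNF139 had −0.04, −0.06 and 0.20. ERLIN1 had −0.35, −0.56 and −0.20 and ERLIN2 −0.08, −0.13 and −0.06. FAF2 (−0.10, −0.30 and −0.19), UBXN4 (−0.11, −0.22 and −0.11) and VCP (−0.06, 0.17 and 0.09) extract proteins from the membrane. PAQR3, which binds SCAP, had 0.22, 0.14 and 0.22. Of the 16 control genes, 4 held a mir-141 (25%) and 6 a mir-200c match (37.5%), beside 18.2% and 16.3% of all rows with a 3' UTR. Their median UTR length was 1677 bases, against 1013 over all those rows.

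Neighbouring pathways were read in the same way, with no test of their difference from the early enzymes. In the double against the mir-200c knockout of set 1, 1 of 16 fatty acid genes was more than 1.2-fold lower and 4 were higher (median 0.10), beside 16.9% and 15.6% of all rows, the shares against which the next counts also stand. The largest mir-141 effects over both backgrounds there were 0.52 for ACACB, −0.37 for ME1 and 0.33 for TECR. Of 8 uptake and trafficking genes, 2 were lower and 1 higher, with mir-141 effects of 0.44 for TMEM97 and −0.43 for GRAMD1A. Of 13 genes of the nonsterol isoprenoid branch, 2 were lower and 3 higher, with −0.30 for PDSS2, 0.26 for PDSS1 and 0.16 for ZMPSTE24. Of 7 LXR, esterification and efflux genes, 1 was lower and 3 higher, with −0.18 for SOAT1, 0.12 for LPCAT3 and 0.11 for NR1H3. Limma called 0 genes of any list for any of the 3 tests.

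Line markers and markers of other cells were read as ratios, since no levels were given. The 6 epithelial markers of the line lay between −0.24 and 0.24 in the 3 set 1 clones. In the double against the mir-200c knockout, 2 of them were more than 1.2-fold lower and 0 were higher. Of all rows, 16.9% were that much lower and 15.6% higher. The mir-141 effects were −0.25 for KRT19, −0.22 for KRT8 and −0.09 for ERBB2. Only 3 of 9 fibroblast and 3 of 7 blood markers had a row, and how rows were filtered is not given. Between the double and the mir-200c knockout, 1 fibroblast marker was lower and 1 higher, as for blood markers, beside the same shares of all rows. COL5A1 and LCP1 were highest in the mir-200c knockout (1.29 and 1.05), and had mir-141 effects of −0.84 and −0.81. COL5A2 (0.75), COL1A1 (0.08), CD68 (0.70) and CORO1A (0.03) had effects at or above 0. Their part in the results above was not tested.

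The set 1 profiles nearest to the mean of the 4 genes (−0.23, 0.18 and −0.27 in the mir-141, the mir-200c and the double knockout) belonged to SF3B5, TACC1, AZIN1, VAV1 and ZNF513. Their Euclidean distances over the 3 ratios were 0.019 to 0.057, smaller than those of the members themselves, 0.245 for HMGCS1, 0.249 for LSS, 0.408 for DHCR7 and 0.460 for INSIG1. Within the distance of the farthest member lay 33.3% of all rows, and 404 rows lay closer to the mean profile than the closest member.

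RefSeq promoter windows of 300 bases (250 before to 50 after the start, GRCh38.p14) are shown for the 4 genes because they are known to answer to one set of transcription factors. Capitals mark CCAAT (the box bound by NF-Y, a partner of SREBP), CACGTG (the E-box) and CACNCCAC (the core of the sterol regulatory element SRE-1), on either strand. The windows are chr5:43313363-43313662 (minus strand) for HMGCS1, chr21:46228725-46229024 (minus) for LSS, chr7:155297628-155297927 (plus) for INSIG1 and chr11:71448344-71448643 (minus) for DHCR7. HMGCS1 and DHCR7 have a further window each, and the one nearest the listed transcript's start was taken. The start of the window lay 100 bases from that transcript's start for HMGCS1, 50 for LSS and 42 for DHCR7. For INSIG1 no listed start was matched. Motif positions below count from the start of the window used.
HMGCS1: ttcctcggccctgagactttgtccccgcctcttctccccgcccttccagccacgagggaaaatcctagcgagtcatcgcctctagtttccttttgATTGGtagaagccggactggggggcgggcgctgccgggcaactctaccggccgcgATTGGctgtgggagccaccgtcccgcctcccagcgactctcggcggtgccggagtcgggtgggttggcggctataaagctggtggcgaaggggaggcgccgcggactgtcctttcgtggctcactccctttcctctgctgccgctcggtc
LSS: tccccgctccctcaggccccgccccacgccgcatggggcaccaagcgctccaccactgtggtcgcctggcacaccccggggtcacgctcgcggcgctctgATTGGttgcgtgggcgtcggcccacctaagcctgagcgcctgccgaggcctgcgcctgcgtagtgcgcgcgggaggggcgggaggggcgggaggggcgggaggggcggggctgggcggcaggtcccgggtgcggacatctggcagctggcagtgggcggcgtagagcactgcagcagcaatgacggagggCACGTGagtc
INSIG1: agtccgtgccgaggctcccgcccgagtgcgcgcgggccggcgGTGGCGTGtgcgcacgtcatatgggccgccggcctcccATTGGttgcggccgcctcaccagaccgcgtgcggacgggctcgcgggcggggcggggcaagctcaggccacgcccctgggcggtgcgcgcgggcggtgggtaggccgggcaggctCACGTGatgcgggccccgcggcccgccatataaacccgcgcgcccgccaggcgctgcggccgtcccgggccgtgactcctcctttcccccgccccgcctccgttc
DHCR7: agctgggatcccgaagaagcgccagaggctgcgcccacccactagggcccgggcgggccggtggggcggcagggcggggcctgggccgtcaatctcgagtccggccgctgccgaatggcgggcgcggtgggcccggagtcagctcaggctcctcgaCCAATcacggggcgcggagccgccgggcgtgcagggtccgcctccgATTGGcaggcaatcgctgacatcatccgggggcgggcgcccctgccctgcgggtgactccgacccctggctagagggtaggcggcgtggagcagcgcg

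All 4 windows held a CCAAT box, HMGCS1 and DHCR7 a pair each, against 35.4% of the 10335 windows of genes in the table and 34.6% of all 35116 windows. In HMGCS1, LSS and INSIG1 every CCAAT box lay on the antisense strand, from positions −155 and −100, −150 and −170 relative to the start. In DHCR7 they began at −94 on the sense and −48 on the antisense strand. GGGCGG, the GC box bound by Sp1, was in all 4 windows, against 68.7% of table windows. The E-box was in LSS, from position 40 after the start, and in INSIG1, from −55 (9.76% of table windows). The SRE-1 core was in INSIG1 (5.63%). The full SRE-1 letters TCACNCCAC, which contain that core, were in 0 of the 4 windows and in 1.12% of table windows. Of 14 measured enzymes with a window, HMGCS1, LSS and DHCR7 among them, 11 held CCAAT, 12 a GC box, 1 an E-box and 1 the SRE-1 core. An enzyme was counted if any of its windows held the motif, so these counts do not compare directly with the shares per window. DHCR7, the member nearest to wild type in set 1, shared the CCAAT and GC boxes with the other 3.

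**Figure D5:**
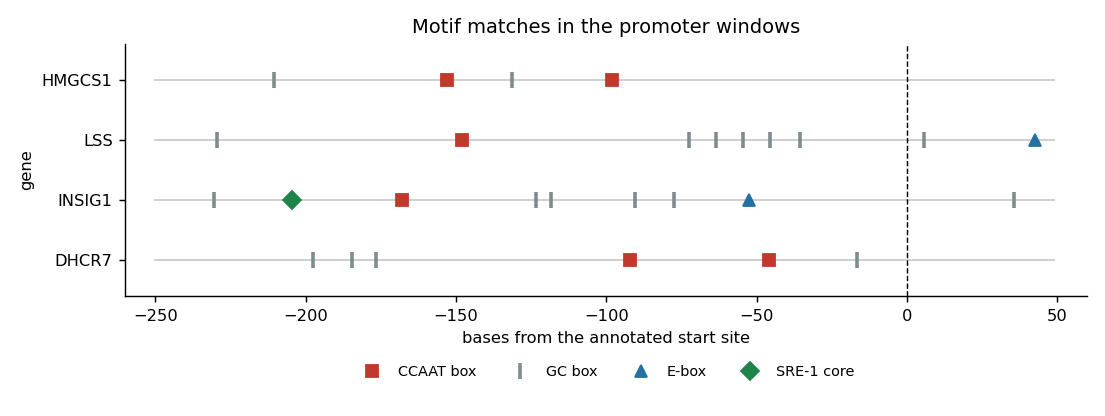
Positions of motif matches on either strand (symbols) in the promoter windows of the 4 genes, in bases from the annotated start site (x axis, dashed line at 0). A CCAAT box lies between −170 and −44 in every window, and the SRE-1 core in INSIG1 only.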

How the data were processed

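The study sequenced RNA from SK-BR-3 cells in 8 libraries, 1 library per group in each of 2 experimental sets. The authors' table gives 9245 rows and 6 columns of log2 values, each a knockout clone over wild-type cells from one set, per the file headers. TopHat2 and GRCh37.p10 are named in the submitters' processing notes; counting, scaling and filtering are not given in the sources used here. Levels and depth could not be read from the ratios, so the depth is unknown and no interval that needs it was given. Columns outside the series numbered 0.

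Members and gene lists were chosen with earlier results of these data known. Named genes were the 4 members, all measured enzyme and SREBP control genes, up to 3 per other list by size of the mir-141 effect in set 1, and the 5 nearest profiles. With ratios in place of levels, each wild type was set to 0. Additive and interaction models with set as a term were fitted to all rows with limma 3.58.1 (R 4.3.3), with Benjamini-Hochberg adjustment at 0.05. Only the additive fit for loss of mir-200c was tried on simulated data. Its planted changes were larger than those fitted for the members, so it does not speak to changes of their size. The pairing by set comes from the labels. Set differences of the groups correlated at 0.494 to 0.654 across rows, but they share both wild types, which alone correlates them, so this is no support for the pairing. The labels do not say that the wild types of the 2 sets were separate cultures, so the spread may be partly technical. Single clones got no test; "lower" there means more than 1.2-fold. Seed matches used the longest 3' UTR in GENCODE 29 (GRCh38) of the listed accession (8961 rows) or symbol (210 rows), and 74 rows had none. Promoters and microRNAs are RefSeq sequences on GRCh38.p14. Alternatives were fits without the set term, with median-centred columns, robust hyperparameters, 1 row per symbol, set 1 alone or 1 library left out, and a 1.5-fold limit. The fit without the set term (no replicate block) also left out the wild types and used the 6 ratios with no intercept. Some listed genes are counted with their lists but not reported here by name.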

Additional observations from a re-analysis of the deposited data

How the results depend on the processing

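Counts of called genes for loss of mir-141 and of mir-200c stayed at 0 without the replicate block, with columns median-centred, in set 1 alone, with robust hyperparameters, with 1 row per symbol and without any 1 library. The interaction could not be fitted on set 1 alone; its count was 0 under the other settings and 0 to 1 without 1 library. The single calls, named after their values were seen, were SLC26A11 without the mir-200c clone of set 1 and WDR20 without the wild type of set 2. Rows lower by the fold at 1.5 in place of 1.2 numbered 170, 490 and 301 in the set 1 clones lacking mir-141, mir-200c and both, against 1019, 2103 and 1705. Signs of near-zero fits turned: INSIG1 for loss of mir-200c was 0.022 without the replicate block and 0.011 with median centring, and DHCR7 was −0.061 in set 1 alone. Without 1 library, loss of mir-200c ranged from −0.107 to 0.087 for HMGCS1, −0.115 to 0.131 for INSIG1, −0.036 to 0.123 for DHCR7 and 0.200 to 0.290 for LSS. The interaction ranged from −0.405 to 0.115, −0.461 to 0.154 and −0.120 to 0.296 for HMGCS1, INSIG1 and DHCR7. The cause was not tested. Limma adjusted p over these alternatives was 0.519 to 0.774 for LSS and loss of mir-200c, and never under 0.05 for a member. CCAAT on the sense strand was in 1 of the 4 promoters.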
